A study of Mus musculus with 12 samples.

Results

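The immediate early genes described here were Egr1, Egr2, Egr3, Fos, Fosb, Fosl1, Jun, Junb, Ier2 and Ier3, 10 of the 39017 genes in the count table of mouse embryonic stem cells (mESCs). They were listed by symbol as early response genes, and the list was chosen with earlier results of these data known. Poly(A) RNA was sequenced from 12 libraries, 3 from each of 4 groups that crossed 2 lines with 2 media. The wild-type line was J1, from a male embryo. The 3B3-3l line, which the study calls 3B3L, lacks Dnmt3a and Dnmt3b on both alleles and carries Dnmt3b and Dnmt3l transgenes under the constitutive CAG promoter, which keep DNA methylated in a medium that otherwise lowers it. Serum medium was high-glucose DMEM with 15% fetal calf serum and, per the labels, 500 U/ml LIF, for which the study's methods give another amount. The 2i medium was N2B27 with 1 µM PD0325901, an inhibitor of MEK, 3 µM CHIR99021, an inhibitor of GSK3, and 1000 U/ml LIF. J1 cells in serum grew on feeder cells that were depleted before use, whereas 3B3-3l cells in serum grew on gelatin, so the line and the culture surface cannot be told apart in serum. 2i medium also differs from serum medium in its base and in lacking serum, so the inhibitors and the rest of the medium cannot be told apart.

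Immediate early genes are transcribed within minutes of a growth factor or stress signal, without new protein synthesis. In the best known route, ERK, the kinase that MEK activates, phosphorylates ETS-family cofactors of the serum response factor SRF, which binds CArG boxes in promoters of genes such as Fos and Egr1. The products take the signal further: EGR proteins are zinc finger transcription factors, and FOS and JUN proteins pair to form the transcription factor AP-1. Fosl1 encodes the FOS-family protein FRA-1. The label of transcription factor fits 8 members, those of the EGR, FOS and JUN families. Ier2 encodes a nuclear protein, and Ier3 a small protein known for effects on ERK signalling and cell survival, and neither belongs to these families.

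The libraries held 37050652 to 44515395 estimated reads, at which 3 counts, the floor used here, equalled 0.0684 to 0.0813 CPM (counts scaled to the library size). Dnmt3b stood at 866 to 927 CPM in 3B3-3l serum and at 914 to 936 CPM in 3B3-3l 2i, against 404 to 427 CPM in J1 serum and 41.0 to 47.2 CPM in J1 2i, and Dnmt3a at 29.4 to 34.3 CPM in 3B3-3l serum against 166 to 167 CPM in J1 serum. Among the 8 stem cell markers, all had over 3 counts in every library. The 12 fibroblast markers, chosen as a measure of feeder cells, summed to 59.5 to 63.2 CPM in J1 serum, 26.6 to 27.8 in J1 2i, 77.3 to 90.8 in 3B3-3l serum and 17.9 to 18.5 in 3B3-3l 2i. Of these, Dcn, Lum, Postn and Prrx1 were too low to test, Lum being at 0 in all J1 libraries. Summed over each group, Dcn held 11 counts in J1 serum and 20 in 3B3-3l serum, against 0 in 2i in both lines. Postn held 16 and 15 counts in serum against 1 and 1 in 2i, and Prrx1 12 and 12 against 10 and 3. The sum in serum was higher in the line grown without feeders. Of the 8 fibroblast markers tested, 6 fell in 2i in each line, as most members did, and Pdgfrb rose in J1 (log2 1.62), where its mean was 6.31 CPM in serum. Without Pdgfrb, the sum was 54.1 to 56.8 CPM in J1 serum, 6.75 to 8.15 in J1 2i, 69.8 to 84.4 in 3B3-3l serum and 10.7 to 11.2 in 3B3-3l 2i. The part of fibroblast RNA in the members' changes was not tested. In bulk RNA, fewer cells expressing a gene and less RNA in each cell cannot be told apart.

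Promoter sequences of Egr2, Fos, Fosb, Jun and Junb are shown because they hold the letters of binding motifs for early response factors, and because all 5 genes fell in 2i. RefSeq windows (GRCm38.p6, the mm10 build of the files) were found for 6 of the 10 members, Ier3 being the other one. Ier3 also fell in 2i in both lines, and its window held no match to the motifs searched. For Fos, Jun and Junb each line gives the 150 bases before the transcription start. For Egr2 and Fosb, which have more than 1 annotated start, it gives 30 bases around the motifs, from 80 to 51 bases before the start used for Egr2 and from 65 to 36 for Fosb. All are written 5′ to 3′ on the strand of the gene, and capitals mark matches to the motifs searched. Egr2 is at chr10:67537789-67537818 and Fos at chr12:85473740-85473889, both on the plus strand. Fosb is at chr7:19310081-19310110, Jun at chr4:95052223-95052372 and Junb at chr8:84978749-84978898, all on the minus strand.
Egr2: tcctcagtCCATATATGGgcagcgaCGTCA
Fos: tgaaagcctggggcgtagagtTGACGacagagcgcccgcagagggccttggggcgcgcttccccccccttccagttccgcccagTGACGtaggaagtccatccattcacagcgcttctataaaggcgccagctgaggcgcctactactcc
Fosb: gcgggTGACGcaagcGCGGGGGCGggtccc
Jun: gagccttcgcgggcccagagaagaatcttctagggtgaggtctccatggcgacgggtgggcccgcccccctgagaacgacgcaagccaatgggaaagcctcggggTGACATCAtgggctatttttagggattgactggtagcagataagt
Junb: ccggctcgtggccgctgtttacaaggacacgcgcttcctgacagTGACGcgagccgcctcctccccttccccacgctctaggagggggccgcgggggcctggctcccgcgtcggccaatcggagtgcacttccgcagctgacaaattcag

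In Egr2, the first capitals mark a CArG box, CCATATATGG, from 72 to 63 bases before the start, and the second mark CGTCA, the reverse complement of TGACG, the core of the cAMP response element. A CArG box was present in 1.47% of 32851 windows of 250 bases, and TGACG in 17.8%. Fos held TGACG at 129 and at 66 bases before the start, Fosb at 60 and Junb at 106. Fosb also held GCGGGGGCG, a match to the EGR motif GCGNGGGCG, which was present in 4.7% of windows. In Jun, the capitals mark TGACATCA, which matches TGACNTCA, a form found in 7.49% of windows. The searches also covered TGACGTCA (1.55% of windows), the AP-1 motif TGANTCA (6.75%) and the ETS core CCGGAA (12.0%), on both strands, and TGACGTCA holds TGACG and is a form of TGACNTCA. Of the 5 overlapping or neighbouring Egr2 windows, the one shown was chosen for its CArG box and TGACG cores, and the full window also held TGACG at 111 bases before the start. The 2 windows that overlap it held the same matches, the window from base 67537316 held another CArG box, CCTTTTTTGG, and 3 matches to the ETS core, and the window from base 67535249 held no match. These matches describe the letters of the windows only. Bases further upstream than 250 were not searched, so the windows do not show whether a promoter such as that of Fos holds a CArG box there.

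All 9 members that could be tested had lower counts in 2i in J1 cells, although the TPM of Ier2 was higher, where 32.8% of the 17885 genes tested fell and 65.9% were called in either direction. The counts of Egr3 were too low for a test. In J1, 8 of the 9 fell by at least 2-fold, Ier2 being the exception, against 14.3% of all genes. In 3B3-3l, 8 of the 9 fell and Ier2 rose, where 32.5% of all genes fell, 32.6% rose and 65.1% were called. Those 8 fell by at least 2-fold, against 16.1% of all genes. The median log2 fold change of the 9 members was -2.52 in J1 and -3.04 in 3B3-3l, beside 0.01 over all genes in each line. Calls are from edgeR's quasi-likelihood test at a Benjamini-Hochberg adjusted p under 0.05, and log2 fold changes are given with standard errors. Each standard error is the size of the unshrunk log2 estimate over the square root of the test's F statistic, so it is approximate at low counts. In the plot of CPM by library, the serum and 2i libraries of each line stood apart for all 9 genes. They also did so for 20 (J1) and 25 (3B3-3l) of 26 other early response genes tested, which are described below. The share over all genes was not computed, so the separation is not read as particular to the members.

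**Figure D1:**
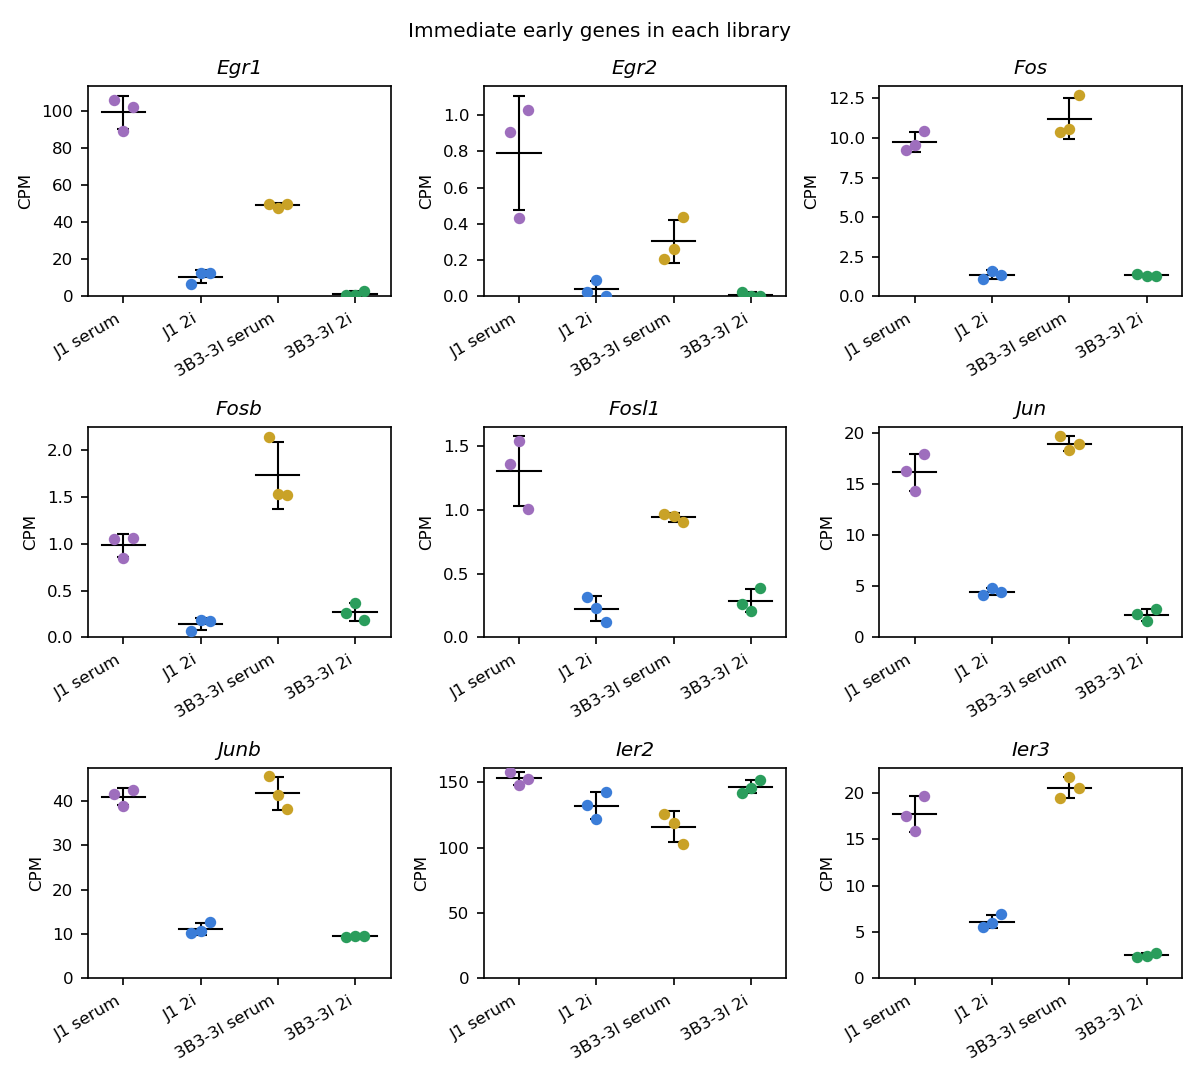
CPM of the 9 tested genes in each of the 12 libraries, with each gene on its own linear axis from 0. Points are libraries, long bars are group means and error bars are SD (n = 3). Mean Egr1 in serum and in 2i is 99.3 and 10.7 CPM in J1, and 49.2 and 1.5 CPM in 3B3-3l, whereas Ier2 stays above 100 CPM in all libraries.

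Egr1, the most widely studied EGR factor, had the largest estimated fall among members whose 2i libraries all held more than 3 counts. In J1 the estimate for Fos (log2 -2.84 ± 0.13) was close to that of Egr1, and members were not tested against each other. Its libraries held 106, 89.4 and 102 CPM in J1 serum and 6.68, 12.8 and 12.7 CPM in J1 2i. In 3B3-3l they held 50.1, 47.9 and 49.7 CPM in serum and 0.649, 0.950 and 2.91 CPM in 2i. The 4 groups did not overlap, and each 3B3-3l group lay below the J1 group in the same medium. The log2 fold change of 2i against serum was -3.22 ± 0.31 in J1 (adjusted p = 1.47e-05) and -5.06 ± 0.40 in 3B3-3l (adjusted p = 3.73e-06), which left 10.8% and 3.00% of the serum level. Within 3B3-3l 2i, replicate 3 held 113 counts, against 27 and 41 in the others, and without it the log2 fold change was -5.93. The coefficient of variation that edgeR fitted to Egr1 was 27.6%, above that of 99.9% of the 4577 genes of similar level, whose median was 5.37%.

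Egr2, a factor of the same family known from hindbrain and myelin development, was low throughout. It had 38, 18 and 38 counts in J1 serum and 1, 4 and 0 in J1 2i. In 3B3-3l it had 8, 11 and 17 counts in serum and 1, 0 and 0 in 2i. Serum and 2i libraries were separate in both lines. Pooled over libraries, its level in serum was 20.1 times that in 2i in J1 (95% exact interval 8.31 to 63.3), and 37.4 times in 3B3-3l (6.29 to 1517), where the 2i total was 1 count. These intervals cover counting error only. The fall passed the test in both lines (edgeR adjusted p = 5.07e-06 and 0.000183). Egr3, the third EGR gene on the list, had 3, 3 and 4 counts in J1 serum, 0, 1 and 0 in J1 2i, 1, 2 and 1 in 3B3-3l serum and 2, 1 and 1 in 3B3-3l 2i. Apart from 1 library with 4 counts these were at or under the floor, so no fold is given.

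Fos, whose protein is the prototype partner of JUN, held 9.22, 9.55 and 10.4 CPM in J1 serum and 1.07, 1.63 and 1.37 CPM in J1 2i. In 3B3-3l it held 10.4, 10.6 and 12.7 CPM in serum and 1.40, 1.27 and 1.32 CPM in 2i. The media were far apart and the lines were close together in each. Its log2 fold change was -2.84 ± 0.13 in J1 (adjusted p = 1.07e-12) and -3.07 ± 0.13 in 3B3-3l (adjusted p = 3e-13). Fosb, whose product also pairs with JUN proteins, ranged from 0.844 to 1.06 CPM in J1 serum and from 0.0684 to 0.184 CPM in J1 2i, and from 1.52 to 2.14 CPM in 3B3-3l serum and 0.181 to 0.371 CPM in 3B3-3l 2i. Its log2 fold change was -2.78 ± 0.34 in J1 and -2.64 ± 0.28 in 3B3-3l (adjusted p = 6.79e-07 and 1.16e-07). Fosl1 ranged from 1.00 to 1.54 CPM in J1 serum, 0.122 to 0.319 in J1 2i, 0.901 to 0.966 in 3B3-3l serum and 0.209 to 0.387 in 3B3-3l 2i. Its log2 fold change was -2.52 ± 0.30 in J1 and -1.72 ± 0.30 in 3B3-3l (adjusted p = 5.15e-07 and 5.43e-05). Fosb and Fosl1 were near 1 CPM in serum, with at most 16 counts in any 2i library.

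Jun, the founding JUN-family gene and itself a target of AP-1, held 16.3, 14.3 and 17.9 CPM in J1 serum and 4.12, 4.80 and 4.41 CPM in J1 2i. In 3B3-3l it held 19.7, 18.3 and 18.9 CPM in serum and 2.24, 1.62 and 2.76 CPM in 2i. All 3B3-3l libraries were above all J1 libraries in serum and below them in 2i, and the serum difference did not pass the test (log2 0.23 ± 0.11, adjusted p = 0.0929). The log2 fold change of 2i against serum was -1.86 ± 0.12 in J1 and -3.11 ± 0.13 in 3B3-3l (adjusted p = 1.83e-10 and 4.69e-13). Junb, which encodes the family member with weaker transactivation, held 41.6, 38.9 and 42.5 CPM in J1 serum and 10.2, 10.6 and 12.8 CPM in J1 2i. In 3B3-3l it held 45.6, 41.4 and 38.2 CPM in serum and 9.43, 9.64 and 9.57 CPM in 2i. The serum groups overlapped, and the 2i libraries of 3B3-3l lay just below those of J1. Its log2 fold change was -1.87 ± 0.08 in J1 and -2.13 ± 0.08 in 3B3-3l (adjusted p = 4.96e-13 and 8.56e-14).

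Ier3 held 17.6, 15.9 and 19.7 CPM in J1 serum and 5.51, 5.97 and 6.90 CPM in J1 2i. In 3B3-3l it held 19.5, 21.7 and 20.6 CPM in serum and 2.31, 2.43 and 2.79 CPM in 2i. The serum groups overlapped and the 2i groups did not. The log2 fold change was -1.53 ± 0.10 in J1 and -3.04 ± 0.11 in 3B3-3l (adjusted p = 9.9e-11 and 2.3e-14). Ier2 did not follow the others. It held 158, 148 and 153 CPM in J1 serum and 132, 122 and 143 CPM in J1 2i, a log2 change of -0.21 ± 0.07 (adjusted p = 0.0109) whose call was lost without J1 2i replicate 2 (-0.15, adjusted p = 0.0601). In 3B3-3l it held 126, 119 and 103 CPM in serum and 142, 146 and 152 CPM in 2i, a log2 change of 0.34 ± 0.07 (adjusted p = 0.000265). The counts thus moved in opposite directions in the lines, each by less than 2-fold. The log2 ratio of TPM in 2i over serum was above 0 in both, at 0.21 in J1 and 0.29 in 3B3-3l, so the direction in J1 depended on the scale. Apart from transcript length, TPM differs from CPM within a library by a factor shared by all genes. The shift behind the change of sign is thus one of whole libraries and not particular to Ier2.

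**Figure D2:**
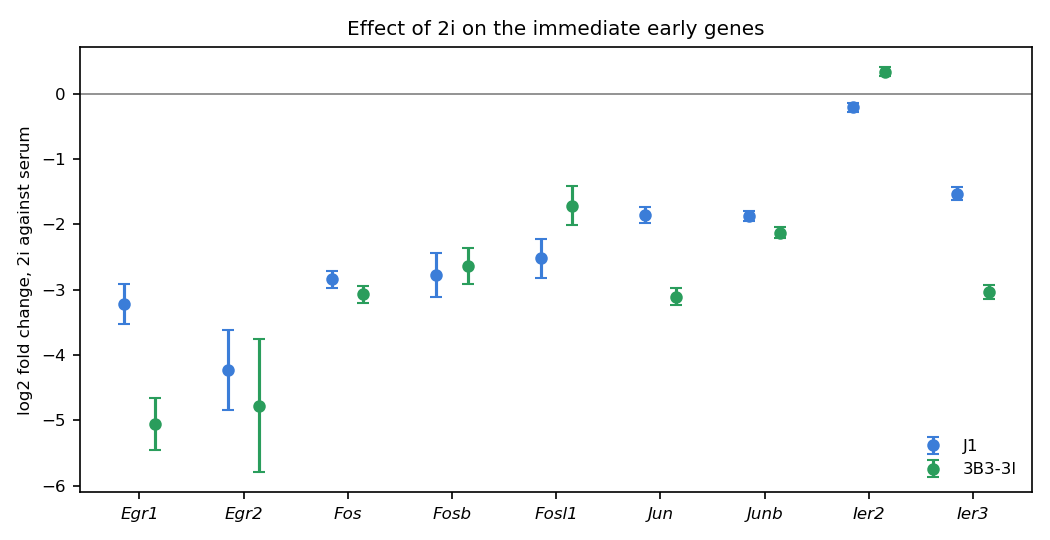
Log2 fold change of 2i against serum for the 9 tested genes in J1 (blue) and 3B3-3l (green), from the edgeR fit. Points are estimates, error bars are standard errors derived from the test's F statistic and the grey line marks no change. All genes but Ier2 lie below -1.5, and Ier2 lies at -0.21 in J1, where its TPM ratio has the opposite sign, and at 0.34 in 3B3-3l.

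The second question of the design was whether the lines differed within a medium. In serum, 4 of the 9 members were called, 3 of them lower in 3B3-3l and 1 higher, where 38.5% of all genes were called, 17.1% lower and 21.5% higher. The log2 difference of 3B3-3l from J1 was -1.01 ± 0.27 for Egr1 (adjusted p = 0.018), -1.37 ± 0.42 for Egr2 (adjusted p = 0.0146), -0.40 ± 0.07 for Ier2 (adjusted p = 0.00015) and 0.81 ± 0.23 for Fosb (adjusted p = 0.00924). The Egr1, Egr2 and Fosb calls did not hold throughout. That of Egr1 was lost with the DESeq2 Wald test (adjusted p = 0.081) and when any 1 of J1 serum replicates 1 and 3 or 3B3-3l serum replicates 2 and 3 was left out (adjusted p 0.0508 to 0.0627). That of Egr2 was lost without J1 serum replicate 1 or 3 or 3B3-3l serum replicate 1 or 2 (0.0606 to 0.0786), and that of Fosb without 3B3-3l serum replicate 1 or J1 serum replicate 2 (0.0632 and 0.0521).

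In 2i, Egr1, Jun, Junb and Ier3 were lower in 3B3-3l and no member was called higher, where 45.9% of all genes were called and 22.9% were lower. The log2 difference from J1 was -2.86 ± 0.44 for Egr1 (adjusted p = 0.000702), -1.02 ± 0.15 for Jun (adjusted p = 1.81e-05), -1.29 ± 0.12 for Ier3 (adjusted p = 8.03e-08) and -0.23 ± 0.09 for Junb (adjusted p = 0.0414). Without 3B3-3l 2i replicate 3 the Egr1 value was -3.73. The Junb call was lost without any 1 of the 3B3-3l 2i libraries, without 3B3-3l serum replicate 2 or without J1 2i replicate 3 (adjusted p 0.052 to 0.243). For Fos the difference in 2i was -0.03 ± 0.17, for Fosl1 0.33 ± 0.38 and for Fosb 0.95 ± 0.42, none of them called.

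The 2i effects themselves differed between the lines for 4 of the 9 members, 3 lower in 3B3-3l and 1 higher, where 34.5% of all genes were called, 18.3% lower and 16.2% higher. The log2 effect in 3B3-3l minus that in J1 was -1.84 ± 0.53 for Egr1 (adjusted p = 0.0274), -1.25 ± 0.18 for Jun (adjusted p = 4.25e-05), -1.51 ± 0.15 for Ier3 (adjusted p = 5.23e-07) and 0.55 ± 0.10 for Ier2 (adjusted p = 0.000252). The Egr1 difference lost its call when any of 7 single libraries was left out (adjusted p 0.0508 to 0.0818) and was -2.72 without 3B3-3l 2i replicate 3. For Ier2 the log2 ratios of TPM were close in the lines, and the difference was not tested on that scale. The differences of Fos (-0.23 ± 0.20), Fosl1 (0.80 ± 0.45), Fosb (0.14 ± 0.48), Egr2 (-0.54 ± 1.84) and Junb (-0.26 ± 0.12) were not called, and for Egr2 the error was too wide to limit the difference to less than several fold in either direction.

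To compare members with each other, reads were divided by effective transcript length in kilobases and by library size (RPKM). Ier2 had the highest level in all groups, from 86.2 ± 8.19 RPKM in 3B3-3l serum to 113 ± 4.09 RPKM in J1 serum. In J1 serum Egr1 came next at 33.1 ± 3.06 RPKM, then Junb at 24.5 ± 1.17 and Ier3 at 18.4 ± 2.03. Fos and Jun (6.32 ± 1.13 and 6.17 ± 0.64 RPKM) overlapped, and Fosl1, Egr2, Fosb and Egr3 were under 1 RPKM. The Fos value covers all its transcripts, of which only Fos-001 is annotated as protein coding. The others are short, so their few reads raise it. In J1 serum replicate 3, Fos-002 held 44.6 reads over an effective length of 463 bases, and Fos-001 held 333 over 1939. The overlap of Fos with Jun is therefore not one of coding RNA alone, which was not ranked. In J1 2i Junb and Ier3 overlapped (6.73 ± 0.80 and 6.41 ± 0.72 RPKM), above Egr1 at 3.64 ± 1.19. In 3B3-3l serum Egr1 stood at 16.6 ± 0.45 RPKM, below Junb (25.1 ± 2.09) and Ier3 (21.6 ± 1.36). In 3B3-3l 2i it stood at 0.507 ± 0.43 RPKM, a level that overlapped that of Fos (0.747 ± 0.14 RPKM).

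The RNA of the FOS and JUN families changed in composition, with all transcripts of each gene counted. The Fos values thus include transcripts not annotated as protein coding. The Fos share of coding mRNA alone was not computed. The FOS and JUN family genes Fos, Fosb, Fosl1, Fosl2, Jun, Junb and Jund summed to 69.1 ± 3.63 RPKM in J1 serum and 39.1 ± 1.62 in J1 2i, and to 70.2 ± 4.36 in 3B3-3l serum and 29.5 ± 0.89 in 3B3-3l 2i. Jund, the JUN-family gene that is expressed in most cells without stimulation, made up 43.0 ± 0.86% of the sum in J1 serum and 75.4 ± 1.5% in J1 2i. In 3B3-3l its share was 39.7 ± 3.31% in serum and 72.8 ± 0.29% in 2i. Junb made up 35.5% of the sum in serum and 17.2% in 2i in J1, and 35.8% and 19.3% in 3B3-3l. Fos made up 9.12% in serum and 2.06% in 2i in J1, and 9.31% and 2.53% in 3B3-3l. In each line the serum and 2i libraries did not overlap in any of these shares, which add up to a fixed whole and so are not independent. Jund itself was not called in J1 (log2 -0.01, adjusted p = 0.871) and was called lower in 2i in 3B3-3l (log2 -0.37, adjusted p = 0.000199).

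**Figure D3:**
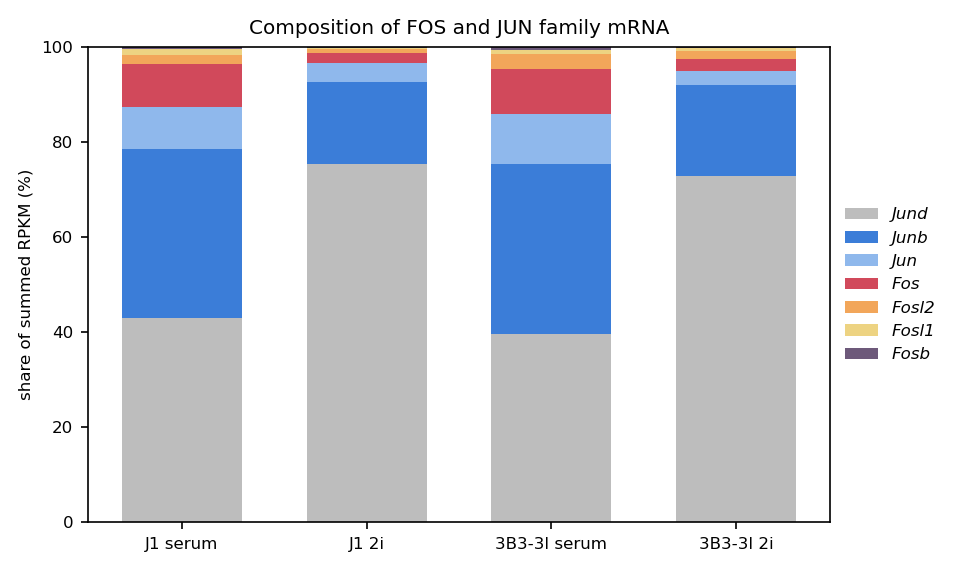
Mean share (n = 3) of each gene in the summed RPKM of 7 FOS and JUN family genes, with all transcripts counted. Bars are stacked from 0 to 100% for the 4 groups. Jund (grey) makes up 43.0% in serum and 75.4% in 2i in J1, and 39.7% and 72.8% in 3B3-3l, while the shares of Junb and Fos are smaller in 2i.

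Other genes of the early response were taken from a list of 27, of which 26 could be tested. In J1, 17 fell and 3 rose in 2i, and in 3B3-3l 18 fell and 5 rose, so that 76.9% and 88.5% were called, against 65.9% and 65.1% of all genes. Their median log2 fold changes were -0.53 and -0.63, beside 0.01 over all genes in each line. Cyr61 (-3.50 in J1, -2.58 in 3B3-3l) and Ctgf (-2.85 in J1), matricellular genes known as targets of SRF and YAP, and the FOS-family gene Fosl2 (-2.26 in 3B3-3l) fell most among called genes that averaged 1 CPM or more in any group. Egr4, an EGR-family gene that was under 1 CPM in all group means, fell as well (-2.12 and -2.78). Atf3, a stress-induced partner of JUN proteins, rose in both lines (1.16 in J1, 1.52 in 3B3-3l), as did the kinase gene Sgk1 (0.56 and 0.85). The orphan receptor gene Nr4a1, chosen after its values were seen, had log2 changes of 0.05 in J1 (adjusted p = 0.54) and 0.19 in 3B3-3l (adjusted p = 0.0155).

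Among SRF and 5 of its cofactors, 4 of 6 fell in J1 and none rose, and in 3B3-3l 3 fell and 2 rose, or 66.7% and 83.3% called against 65.9% and 65.1% of all genes. Srf held 67.6 ± 3.03 CPM in serum and 27.3 ± 1.80 CPM in 2i in J1 (log2 -1.31), and 74.8 ± 5.34 and 36.0 ± 1.89 CPM in 3B3-3l (log2 -1.05). Elk3, an ETS-family cofactor, fell in J1 (-0.58) and rose in 3B3-3l (0.69), where the related Elk4 also rose (0.58) and Mkl1, an actin-regulated cofactor, fell (-0.41). Of 12 kinase genes from RAF to RSK and MSK, 2 fell and 6 rose in J1, and 6 fell and 4 rose in 3B3-3l, again 66.7% and 83.3% called. Mapk3, which encodes ERK1, had log2 changes of -0.74 in J1 and -1.12 in 3B3-3l, and Rps6ka5, which encodes MSK1, of -1.44 and -1.05. Among those that rose were Rps6ka4, which encodes MSK2, in J1 (0.57), and Map2k2, which encodes MEK2, (0.65) and Araf (0.45) in 3B3-3l.

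Of 4 genes for JNK and its kinases, 1 rose and 2 fell in J1, and 1 rose and 1 fell in 3B3-3l, or 75% and 50% called against 65.9% and 65.1% of all genes. Map2k7, a kinase of JNK, rose in both (0.11 in J1, 0.71 in 3B3-3l), Mapk8, which encodes JNK1, fell in both (-0.21 and -0.37), and Map2k4 fell in J1 (-0.23). Of 9 AP-1 partners, 2 rose and 5 fell in J1, and 2 rose and 6 fell in 3B3-3l, or 77.8% and 88.9% called. The genes that rose were Atf3 and Jdp2, whose product represses AP-1 activity (1.46 in J1, 1.38 in 3B3-3l). Fosl2 (-2.06 and -2.26) and Creb1 (-0.33 and -0.45) fell in both lines, as did Batf3 (-2.14 and -2.86) and Batf (-1.14 and -1.33), which were under 1 CPM. So did both EGR corepressor genes, Nab1 (-1.56 and -1.39) and Nab2 (-0.73 and -0.49). Of 8 heat shock genes, chosen because cell dissociation can induce early genes, 5 fell and 1 rose in J1, and 3 fell and 3 rose in 3B3-3l, or 75% called in each, near the share of all genes. Hspa1a fell in both lines (-1.17 and -0.94), and Hspb1 (0.65) and Dnajb1 (0.46) rose in 3B3-3l. The part of heat shock or of cell handling in the members' levels was not tested.

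**Figure D4:**
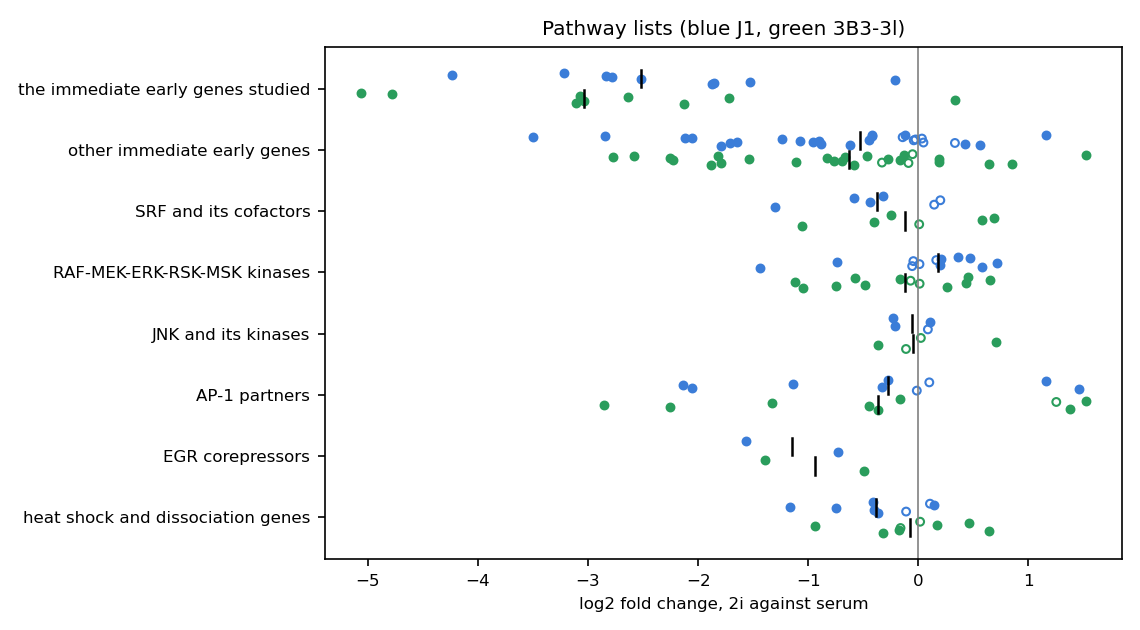
Log2 fold change of 2i against serum for the tested genes of each list, in J1 (blue) and 3B3-3l (green). Filled points were called by edgeR, open points were not, and black ticks are medians. The medians of the members are -2.52 and -3.04, and those of the other immediate early genes are -0.53 and -0.63.

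Across the 12 libraries, the genes whose log2 CPM was most like that of Egr1 among 10130 genes were Gstm5, Acan and Zfp423 (Pearson r 0.99, 0.98 and 0.98), and those most like Fos were Cldn6, Rnf144a and Igsf10 (r 0.997, 0.996 and 0.995). The libraries fall into 4 groups, so these values mostly describe group differences. Within groups, J1 serum replicate 2 had the lowest CPM of its group for 7 of the 9 members, and J1 2i replicate 1 for 6 of the 9. In 3B3-3l serum, replicate 1 had the highest CPM for 6 of the 9. These ranks were not set against those of all genes, so an offset of a whole library cannot be told apart. By transcript, Egr1-201 held 86.4% of Egr1 reads in J1 serum and 85.3% to 91.8% in the other groups.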

How the data were processed

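Groups and replicate numbers came from the sample labels. Stranded poly(A) libraries were quantified by the authors with Sailfish against mm10 transcripts. Their methods name RefSeq models and the identifiers are those of Ensembl. The authors combined libraries in sequencing pools, and the labels do not assign libraries to pools. The deposited gene table holds estimated counts from tximport, unscaled, and the deposited transcript tables hold TPM, estimated counts and effective lengths.

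Estimated counts were rounded. Genes were filtered with filterByExpr (17885 kept), scaled by TMM (factors 0.97 to 1.038) and fitted with edgeR (version 4.0.16, R 4.3.3), with 1 coefficient per group over all 12 libraries. Adjusted p values are Benjamini-Hochberg values over all genes tested. The contrasts set 2i against serum within each line and the lines against each other within each medium, and compared the 2i effects of the lines. CPM are means ± SD (n = 3) on TMM library sizes, and RPKM were computed from transcript reads and effective lengths. The scripts were tested on simulated counts. Same-numbered libraries did not deviate together (12 correlations, -0.118 to 0.0167). Alternatives were DESeq2 size factors and Wald test (version 1.42.0), other filters, the 6 libraries compared, a replicate block, a 2-fold threshold, TPM and leaving out each library.

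The text names all 10 members, genes from among the 2 highest and 2 lowest called of each pathway list in each line that averaged 1 CPM or more in any group, and the 3 genes most like Egr1 and Fos. Not every gene so picked is reported here. Egr4, Nr4a1, Batf, Batf3 and Pdgfrb were added after their values were seen. Members, lists and tests were chosen with earlier results of these data known. The labels call the replicates separate samples, so p values measure the spread between these samples. Coordinates are from RefSeq (GRCm38.p6).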

Additional observations from a re-analysis of the deposited data

Results flagged for a closer look

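For 4 of the 9 members tested, the effect of 2i differed between the lines by the test of the difference itself, where 34.5% of all genes were called. Values are the log2 effect in 3B3-3l minus that in J1, with the edgeR adjusted p. The value was -1.84 for Egr1 (adjusted p = 0.0274), -1.25 for Jun (adjusted p = 4.25e-05), -1.51 for Ier3 (adjusted p = 5.23e-07) and 0.55 for Ier2 (adjusted p = 0.000252). The Egr1 call was lost when any 1 of 7 libraries was left out (adjusted p 0.0508 to 0.0818), and its value was -2.72 without 3B3-3l 2i replicate 3. With TPM the log2 ratio of Ier2 in J1 had the opposite sign (0.21) and was close to that in 3B3-3l. Apart from transcript length, TPM shifts all genes of a library by a shared factor, so this shift is not particular to Ier2. The difference of the lines was not tested on TPM.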

How the results depend on the processing

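The falls of the 8 members other than Ier2 kept their direction and their call in both lines under all alternatives that gave a value. Requiring a change of more than 2-fold in the test left 2755 genes for 2i against serum in J1, 2964 in 3B3-3l, 92 for the lines in serum, 427 for the lines in 2i and 310 for the difference of effects. Of the members it left 0 for the lines in serum, 1 (Egr1) in 2i and 1 (Ier3) for the difference. Leaving out 1 library at a time gave 2 to 5 members for the lines in serum, and turned the sign of some differences that had not been called. Junb between the lines in serum ranged from -0.042 (without 3B3-3l serum replicate 1, and -0.009 without J1 serum replicate 2) to 0.087. Fos between the lines in 2i ranged from -0.18 to 0.13, the latter without J1 2i replicate 2. The difference of effects ranged from -0.19 to 0.39 for Fosb, turning without 3B3-3l 2i replicate 2 or J1 2i replicate 1, and from -2.41 to 0.96 for Egr2, turning without J1 2i replicate 2. Calls were gained under 5 alternatives for Ier3 and 2 for Jun in serum, 2 for Ier2 and 1 for Fosb in 2i, and 1 for the difference of Junb. The Egr2 fall was -5.73 in J1 without J1 2i replicate 2 and -6.64 in 3B3-3l without 3B3-3l 2i replicate 1, the libraries that held most of its few 2i counts. With TPM in place of RPKM, 5 of 18 log2 ratios of members were counted as moved, set against the spread of their 2i libraries. The largest shift was 0.55. In addition, 1 ratio, that of Ier2 in J1, changed sign (0.21). Within a library, TPM and RPKM differ by a factor shared by all genes, so these shifts are those of whole libraries. What set the size of that factor was not tested. With the replicate number as a block, which the labels do not say pairs the samples, Junb in 2i lost its call (-0.23, adjusted p = 0.0588) and Ier3 in serum gained one (0.22, adjusted p = 0.0441), and no other member call changed. Egr3, and the 2i levels of Egr2, were too low for the depth to resolve.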
